A study of Caenorhabditis elegans with 8 samples.

Results

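The genes described here are 10 transcription factor genes of the nematode Caenorhabditis elegans that are studied for their parts in stress and damage responses: zip-10, fos-1, jun-1, cebp-1, egrh-1, pqm-1, sta-2, skn-1, atf-7 and crh-1. They were taken from the count table by exact match of the gene symbol. A row was found for 9 of the 10, out of 21309 rows in the table, and all 9 passed the low-count filter with 16813 rows in all. The gene jun-1 was not analysed here because no row carried that symbol. Whole worms had been exposed to magnolol (3 libraries, 200 µM for 1 h), to honokiol (2 libraries, 200 µM for 1 h) or to DMSO as the control (3 libraries). Magnolol and honokiol are biphenols of Magnolia bark and positional isomers, with the same allyl and hydroxyl groups placed differently on the joined rings. Strain, sex, stage and age of the worms are not stated by the sources used here, and no label says whether replicates were separate cultures, so a p-value here describes the spread between libraries, which may be technical.

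Transcription factors of these families turn signals from kinases, receptors or cell damage into changes of transcription. The bZIP proteins, to which ZIP-10, FOS-1, CEBP-1, ATF-7 and CRH-1 belong, bind DNA through a basic region and usually pair through a leucine zipper, while SKN-1, the worm counterpart of mammalian Nrf proteins, binds DNA without a zipper. Many of these proteins are activated by phosphorylation or by movement into the nucleus, so the level of their mRNA is only one of the layers at which they are controlled. In mammals the fos, jun and egr genes are known as immediate early genes, whose mRNA rises soon after a stimulus.

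Libraries held 30274330 to 35888186 counts. Levels below are CPM (read counts scaled to a common library size after TMM normalisation), and changes are log2 fold changes ± SE from edgeR's quasi-likelihood test over all rows, in which a gene was called at a Benjamini-Hochberg adjusted p under 0.05. Within groups, magnolol 2 stood apart from magnolol 1 and 3 (chi-square per degree of freedom of 42.1 and 33, against 8.55 between the other pair), control 3 stood apart from control 1 and 2 (33 and 37.4, against 11.8), and the honokiol libraries differed by 30.2. Results that rest on 1 of these libraries are given with and without it. In RNA of whole worms, fewer cells of a type and less RNA per cell cannot be told apart. Intestine markers (7 of 8 found) summed to 1906 to 2242 CPM with magnolol, 1722 to 1981 CPM with honokiol and 1870 to 1962 CPM in control. Epidermis markers (8 of 8 found) summed to 2264 to 2367, 1857 to 2121 and 1889 to 2321 CPM in the same order, and body wall muscle markers (7 of 8 found) to 10876 to 15406, 8771 to 10945 and 10999.8 to 12263 CPM. In that order neuron markers (8 of 9 found) summed to 307 to 360, 270.3 to 301 and 281 to 298 CPM, oocyte markers (9 of 10) to 1779 to 1996, 1481 to 1701 and 1612 to 1744 CPM, and sperm markers (7 of 10 found, in 9 rows) to 721 to 801, 804 to 856 and 769.7 to 834 CPM. No row of these lists was at 0 in all libraries, and in edgeR 1 intestine marker was called, higher with honokiol. The part of tissue makeup in the results was not tested.

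Across the 9 genes, most transcripts were higher after 1 h with either compound. With magnolol 7 of the 9 were called higher and 0 lower, where 2.16% of all tested rows were called higher, and 2.87% in either direction. With honokiol 5 of the 9 were called higher and 0 lower, where 3.04% of all tested rows were called higher and 3.43% in either direction. The median log2 fold change over the 9 genes was 0.62 with magnolol and 0.64 with honokiol, beside 0.0027 and -0.012 over all tested rows. These genes were listed with earlier results of these data known, so the counts describe them and support no statement on stress factors at large. Both comparisons share the same 3 control libraries.

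**Figure D1:**
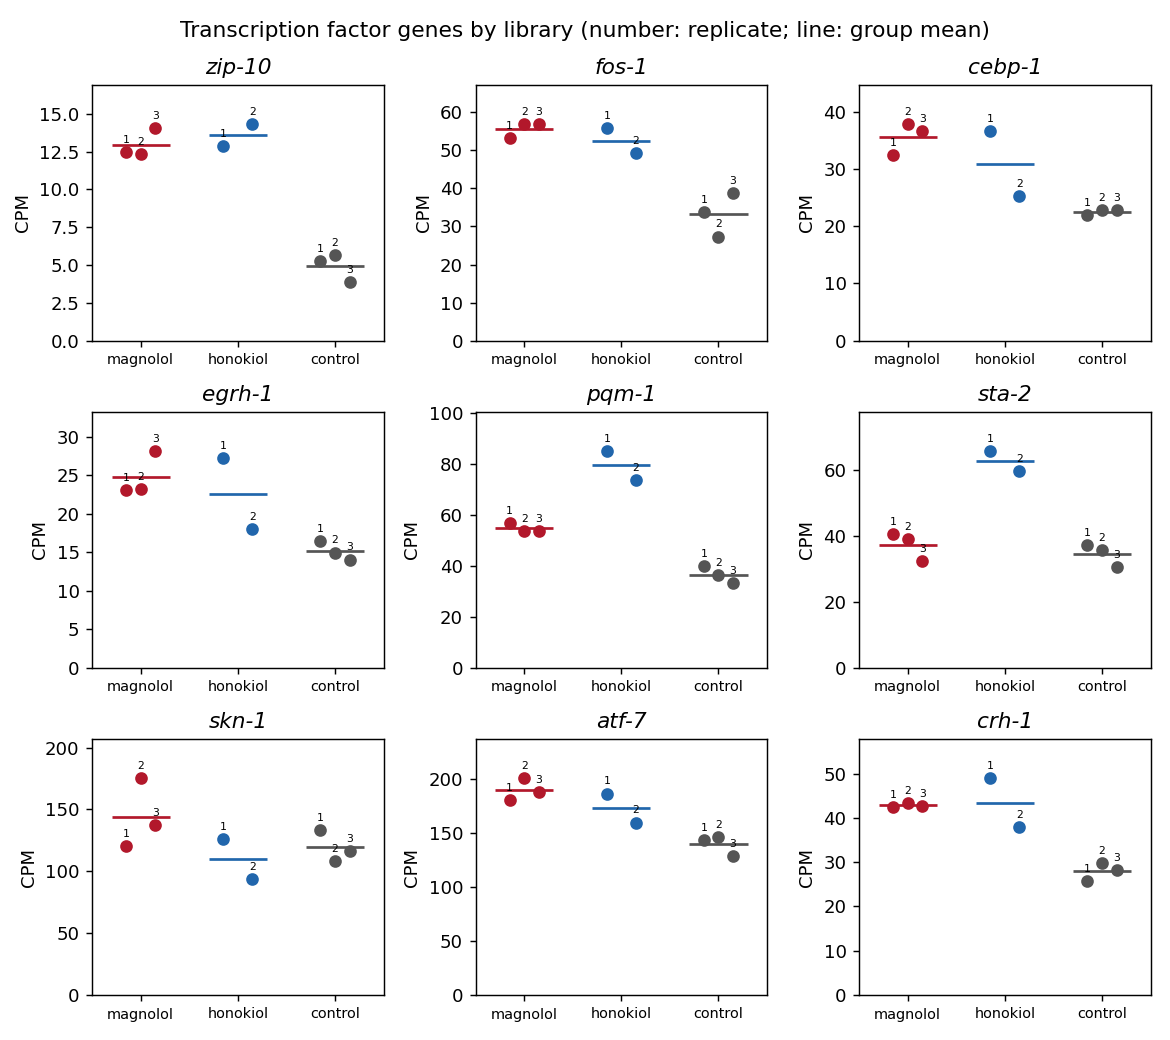
CPM (vertical axis, from 0) of each of the 9 genes in each library, with magnolol, honokiol and control from left to right, replicate numbers above the points and a line at the group mean. All magnolol and honokiol libraries lie above all controls for zip-10, fos-1, cebp-1, egrh-1, pqm-1, atf-7 and crh-1, while sta-2 is raised in the honokiol libraries and skn-1 overlaps in every group.

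The change of zip-10 was the largest of the 9 in both comparisons with control. This gene encodes a bZIP factor known in worms from the response to cold shock, where it acts in a programme that promotes death of the animal. It lies on the minus strand of chromosome V (11650079 to 11650762, WBcel235), has 1 annotated transcript and holds only 633 exon bases. Its level was 12.4, 12.4 and 14.1 CPM in magnolol 1 to 3 and 12.9 and 14.3 CPM in the 2 honokiol libraries, against 5.28, 5.68 and 3.87 CPM in the control libraries 1 to 3. The lowest treated library thus stood above the highest control. The change was 1.39 ± 0.16 with magnolol, or 2.61-fold (95% interval 2.06 to 3.31, adjusted p = 5.91e-05 in edgeR). With honokiol it was 1.46 ± 0.17, or 2.74-fold (interval 2.12 to 3.55, adjusted p = 5.71e-05 in edgeR). Of all tested rows 309 had a larger log2 fold change with magnolol and 395 with honokiol. Both calls held in each of the 19 alternatives, the libraries left out included. The gene shares 12 exon bases with skp-1 on the other strand, and the sources used here do not state the strand setting of the counting. The level of skp-1 was 102.4 CPM with magnolol, 100.03 CPM with honokiol and 103.9 CPM in control, with log2 fold changes of -0.021 and -0.054 that were not called.

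Of the AP-1 pair only fos-1 could be measured. FOS-1 is the worm Fos protein, known for its role in the invasion of the anchor cell through the basement membrane of the gonad. The gene spans 6003601 to 6016087 on the plus strand of chromosome V, with 6 annotated transcripts that the counts do not separate. It was at 53.2, 56.8 and 57 CPM in magnolol 1 to 3 and at 55.8 and 49.3 CPM in the 2 honokiol libraries, against 33.8, 27.4 and 38.9 CPM in the control libraries 1 to 3. No treated library reached down to the control range, although the controls varied more (coefficient of variation 17.4%) than the magnolol libraries (3.85%). The rise was 0.74 ± 0.12 with magnolol (1.67-fold, adjusted p = 0.0016 in edgeR) and 0.66 ± 0.13 with honokiol (1.58-fold, adjusted p = 0.00717 in edgeR). Without honokiol 1, the honokiol value was 0.58 ± 0.16 with adjusted p = 0.0877 in edgeR, and the call was lost. Its largest overlap is with a snoRNA gene on the same strand, over 256 exon bases or 5.80% of its exon length. The share of snoRNA reads in its counts was not tested. On the other strand its exons overlap an ncRNA and an antisense RNA gene, and for 29 bases the proteasome gene rpt-2. The transcript of rpt-2 reached 275.3 CPM with magnolol, 272.1 CPM with honokiol and 259.002 CPM in control and was not called.

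The C/EBP gene cebp-1 and the early growth response gene egrh-1 followed a shared pattern, with a call for magnolol and a split between the honokiol libraries. CEBP-1 is a bZIP factor that acts downstream of the kinase DLK-1 in the regrowth of cut axons, and egrh-1 encodes a zinc finger protein of the EGR family. The cebp-1 gene (chromosome X, 1452695 to 1453868, minus strand) was at 32.3, 37.8 and 36.5 CPM in magnolol 1 to 3 and at 36.7 and 25.2 CPM in the 2 honokiol libraries, against 21.9, 22.9 and 22.7 CPM in the control libraries 1 to 3. Honokiol 1 was as high as the magnolol libraries, and honokiol 2 stood just above the controls. The log2 fold change was 0.66 ± 0.13 with magnolol (1.58-fold, adjusted p = 0.00902 in edgeR) and 0.46 ± 0.14 with honokiol (1.37-fold, adjusted p = 0.132 in edgeR). Without magnolol 3 the magnolol value was 0.64 ± 0.15 with adjusted p = 0.0504 in edgeR, and the call was lost. The honokiol value was 0.18 ± 0.15 (adjusted p = 0.756 in edgeR) without honokiol 1 and 0.70 ± 0.14 (adjusted p = 0.0109 in edgeR) without honokiol 2. Without magnolol 2 and control 3 together, the magnolol change of cebp-1 was 0.61 ± 0.16 with adjusted p = 0.0802 in edgeR.

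The egrh-1 gene (chromosome X, 14845937 to 14849217, plus strand) was at 23.1, 23.2 and 28.1 CPM in magnolol 1 to 3 and at 27.2 and 18.04 CPM in the 2 honokiol libraries, against 16.4, 14.96 and 14.1 CPM in the control libraries 1 to 3. Again honokiol 1 lay within the magnolol range and honokiol 2 near the highest control. The change was 0.71 ± 0.15 with magnolol (1.64-fold, adjusted p = 0.0165 in edgeR) and 0.58 ± 0.17 with honokiol (1.49-fold, adjusted p = 0.0848 in edgeR). The magnolol call was lost without magnolol 3 (0.61 ± 0.17, adjusted p = 0.108 in edgeR), without control 2 (0.70 ± 0.18, adjusted p = 0.0703) and without control 3 (0.66 ± 0.17, adjusted p = 0.0591). It was also lost without magnolol 2 and control 3 together (0.70 ± 0.18, adjusted p = 0.0817 in edgeR). The honokiol value of egrh-1 was 0.27 ± 0.18 (adjusted p = 0.651 in edgeR) without honokiol 1 and 0.84 ± 0.17 (adjusted p = 0.0113 in edgeR) without honokiol 2.

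The zinc finger gene pqm-1 was higher with both compounds and stood higher with honokiol than with magnolol. PQM-1 is a transcription factor that was first found through its response to the herbicide paraquat, and that enters nuclei when the insulin-controlled factor DAF-16 leaves them. The gene lies at 11150391 to 11152595 on the minus strand of chromosome II, with 1 transcript. It was at 57, 53.7 and 53.6 CPM in magnolol 1 to 3 and at 85.1 and 73.9 CPM in the 2 honokiol libraries, against 39.97, 36.3 and 33.4 CPM in the control libraries 1 to 3. The 3 groups did not overlap. The change was 0.58 ± 0.10 with magnolol (1.497-fold, adjusted p = 0.00243 in edgeR) and 1.12 ± 0.11 with honokiol (2.17-fold, adjusted p = 5.08e-06 in edgeR), and both calls held in each alternative.

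The sta-2 transcript rose with honokiol and was not called with magnolol, and the compounds differed in it when tested directly. STA-2 is a STAT-family factor that acts in the epidermis in the induction of antimicrobial peptide genes after fungal infection or wounding. The gene lies at 9741206 to 9744331 on the plus strand of chromosome V. It was at 40.7, 38.996 and 32.5 CPM in magnolol 1 to 3 and at 65.8 and 59.6 CPM in the 2 honokiol libraries, against 37.2, 35.9 and 30.5 CPM in the control libraries 1 to 3. The magnolol and control ranges overlapped, and both honokiol libraries lay above every other library. The change was 0.86 ± 0.12 with honokiol (1.82-fold, 95% interval 1.52 to 2.18, adjusted p = 3.46e-04 in edgeR), a call that held in each alternative. With magnolol it was 0.11 ± 0.11 (1.08-fold, interval 0.918 to 1.28, adjusted p = 0.674 in edgeR).

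The 3 genes atf-7, crh-1 and skn-1 encode proteins best known for control by phosphorylation or by protein turnover. ATF-7 is a bZIP factor on which the p38 kinase PMK-1 acts in innate immunity. The atf-7 gene (chromosome III, 4491627 to 4499045, minus strand, 8 transcripts) was at 180.1, 200.2 and 187.3 CPM in magnolol 1 to 3 and at 186.1 and 159.3 CPM in the 2 honokiol libraries, against 143.4, 146.2 and 128.1 CPM in the control libraries 1 to 3. All treated libraries were above all controls. The change was 0.44 ± 0.10 with magnolol (1.36-fold, adjusted p = 0.021 in edgeR) and 0.31 ± 0.11 with honokiol (1.24-fold, adjusted p = 0.198 in edgeR). The magnolol call was lost without magnolol 2 (adjusted p = 0.0706 in edgeR), without magnolol 3 (0.0868), without control 1 (0.0728), without control 3 (0.0695) and without magnolol 2 and control 3 together (0.14), with values between 0.33 and 0.46. Its exons share 72 bases with C07G2.5 on the same strand, which is 2.65% of its exon length.

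CRH-1 is the worm CREB protein, a bZIP factor that answers to cyclic AMP and calcium signals. The crh-1 gene (chromosome III, 11657767 to 11693981, plus strand, 7 transcripts) was at 42.5, 43.4 and 42.6 CPM in magnolol 1 to 3 and at 48.97 and 38.01 CPM in the 2 honokiol libraries, against 25.8, 29.7 and 28.1 CPM in the control libraries 1 to 3. The magnolol libraries were nearly equal (coefficient of variation 1.16%), while the honokiol libraries lay above and below them. The rise was 0.62 ± 0.11 with magnolol (1.54-fold, adjusted p = 0.0035 in edgeR) and 0.64 ± 0.12 with honokiol (1.56-fold, adjusted p = 0.0042 in edgeR). Without honokiol 1 the honokiol value was 0.46 ± 0.13 with adjusted p = 0.111 in edgeR, and the call was lost.

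The skn-1 transcript was not called in any comparison. SKN-1 drives detoxification and antioxidant genes, and its amount is held down by the WDR-23 ubiquitin ligase adaptor. The gene spans 5651039 to 5660384 on the minus strand of chromosome IV and has 4 annotated transcripts, whose separate levels the counts do not give. It shares 41 exon bases with csn-5 on the other strand. It was at 120.3, 175.2 and 137.1 CPM in magnolol 1 to 3 and at 125.998 and 94.003 CPM in the 2 honokiol libraries, against 133.4, 108.5 and 116.2 CPM in the control libraries 1 to 3. The groups overlapped in all 3 comparisons, and magnolol 2 was the highest library. The log2 fold change was 0.27 ± 0.14 with magnolol (interval -0.03 to 0.57) and -0.12 ± 0.16 with honokiol (interval -0.46 to 0.22). The magnolol value was 0.10 ± 0.13 without magnolol 2, 0.080 ± 0.14 without magnolol 2 and control 3 together, and 0.21 to 0.39 without any other single library.

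**Figure D2:**
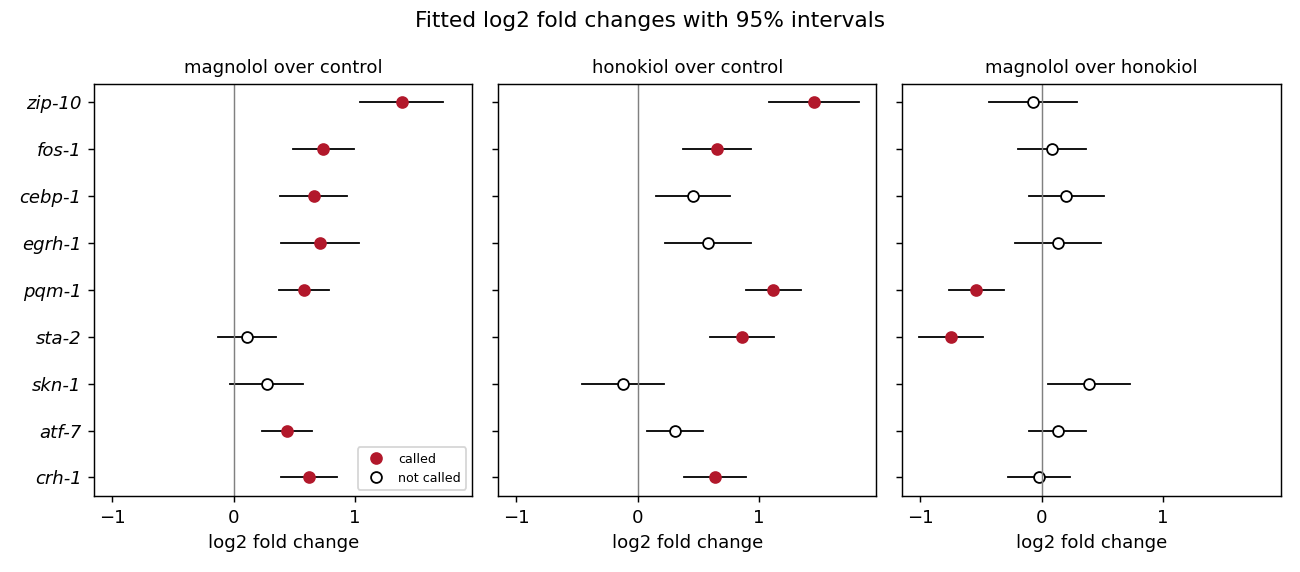
Fitted log2 fold changes (points) with 95% intervals (lines) of the 9 genes for magnolol over control, honokiol over control and magnolol over honokiol, filled where called. The filled points are 7 genes with magnolol, 5 with honokiol and, between the isomers, pqm-1 at -0.54 and sta-2 at -0.75.

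Counted by library, 8, 9 and 8 of the 9 genes stood above every control library in magnolol 1 to 3, and 8 in each honokiol library. The share of all tested rows above every control in a single library was not computed, so these counts are description only. The shares that follow are for whole groups, a stricter measure. The groups did not overlap for 7 of 9 genes with magnolol, all higher, beside 11.9% of tested rows higher without overlap and 22.2% in either direction. For honokiol this was 8 of 9 genes, all higher, beside 13.1% of tested rows higher and 23.5% in either direction. In 8 of the 9 genes honokiol 1 exceeded honokiol 2, the exception being zip-10, and the coefficient of variation between them was 28.7% for egrh-1 and 26.3% for cebp-1, against 6.98% for sta-2 and 7.54% for zip-10. In all, 3 members (zip-10, pqm-1 and sta-2) were called with honokiol when honokiol 1 was left out, and 7 when honokiol 2 was left out. With magnolol the count was 4 of 9 without magnolol 3, and 4 of 9 without magnolol 2 and control 3 together, the genes called in both cases being zip-10, fos-1, pqm-1 and crh-1.

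**Figure D3:**
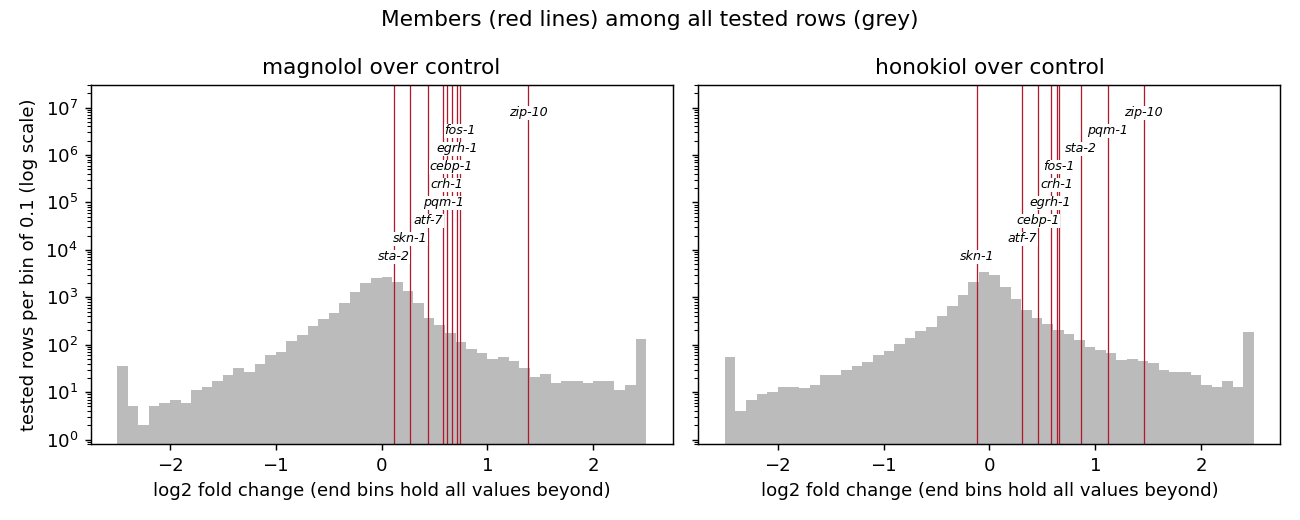
Number of tested rows (grey bars, log scale) by log2 fold change in bins of 0.1 for magnolol over control and honokiol over control, with red lines at the 9 genes. With magnolol sta-2 stands nearest to 0 and zip-10 farthest right, and with honokiol skn-1 is the only line left of 0.

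The changes across the table also moved with transcript length. Over uncalled genes the log2 fold change had a Spearman rho with exon length of 0.347 with magnolol (14629 genes) and -0.186 with honokiol (14535 genes), and of 0.459 for magnolol over honokiol (14836 genes), given as a description since genes are not independent replicates and share the libraries. Of the 9 members 6 were longer than the median of 1336 exon bases. After each library was corrected for its trend with exon length, 7 members were called higher with magnolol, as before, with fos-1 at 0.59, crh-1 at 0.54, atf-7 at 0.34 and zip-10 at 1.497. With honokiol 7 were called higher after that correction, atf-7 (0.36 ± 0.08, adjusted p = 0.0187 in edgeR) and egrh-1 (0.59 ± 0.15, adjusted p = 0.0448 in edgeR) being added to the 5. The share of all tested rows called under this correction is not given here, so these counts are description only.

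Between the isomers, at the same dose and time, 2 of the 9 genes were called and both were lower with magnolol. Over the whole data set 1.24% of tested rows were called lower and 0.285% higher with magnolol than with honokiol, 1.53% in either direction. This is the 1 pair of compounds that can be compared, and p-values were adjusted over all tested rows. The groups did not overlap for the same 2 genes, sta-2 and pqm-1, beside 34.7% of tested rows in either direction. For sta-2 the values of 32.5 to 40.7 CPM with magnolol and 59.6 to 65.8 CPM with honokiol gave a difference of -0.75 ± 0.12 (0.596-fold, interval 0.498 to 0.714, adjusted p = 0.00317 in edgeR), which was called in each alternative. For pqm-1 the values of 53.6 to 57 CPM with magnolol and 73.9 to 85.1 CPM with honokiol gave -0.54 ± 0.11 (0.689-fold, interval 0.588 to 0.807, adjusted p = 0.0161 in edgeR). That call was lost without magnolol 2 (-0.53, adjusted p = 0.0503 in edgeR), without magnolol 3 (-0.52, 0.0979) and without honokiol 1 (-0.45, 0.0812).

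The other 7 genes were not called between the isomers, which does not show that the compounds act alike on them. The 95% interval of the difference, magnolol over honokiol, was 0.740-fold to 1.22-fold for zip-10, 0.873-fold to 1.29-fold for fos-1 and 0.826-fold to 1.176-fold for crh-1. It was 0.933-fold to 1.29-fold for atf-7, 0.930-fold to 1.42-fold for cebp-1 and 0.857-fold to 1.40-fold for egrh-1. For skn-1 the difference was 0.39 ± 0.16 with an interval of 1.03-fold to 1.66-fold and adjusted p = 0.242 in edgeR, so the interval lay above 1 while the adjusted p missed the threshold. That difference was 0.22 ± 0.14 without magnolol 2, 0.19 ± 0.18 without honokiol 2 and 0.60 ± 0.19 without honokiol 1, and was not called in any of these cases. With the exon length correction it was 0.21 ± 0.12, and the change of skn-1 with magnolol over control was 0.15 ± 0.11. Neither was called.

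Per length of exon the order of the 9 levels differed between groups. In CPM per kb of exon, atf-7 was highest in control at 51.3 ± 3.58 (SD, n = 3), in the 84.8th percentile of 15070 tested rows with a length. It was followed by skn-1 (40.3 ± 4.30) and pqm-1 (33.6 ± 3.03), whose ranges overlapped, and by cebp-1 (20.9 ± 0.488) and sta-2 (18.96 ± 1.93), whose ranges overlapped too. Next came crh-1 (11.5 ± 0.812), and then zip-10 (7.81 ± 1.505), fos-1 (7.56 ± 1.31) and egrh-1 (7.16 ± 0.568), each overlapping its neighbour. The level of pqm-1 was 50.4 ± 1.77 CPM per kb with magnolol, within the range of skn-1 (48.7 ± 9.50), and 73.1 ± 7.31 with honokiol, where it led the order and overlapped atf-7 (63.6 ± 6.99). The level of zip-10 was 20.5 ± 1.51 CPM per kb with magnolol and 21.5 ± 1.62 with honokiol, in both groups above crh-1 (17.7 ± 0.205 and 17.99 ± 3.21). Isoforms of fos-1, skn-1, atf-7 and crh-1 differ in length, so their values per kb rest on the summed exons of the annotation.

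**Figure D4:**
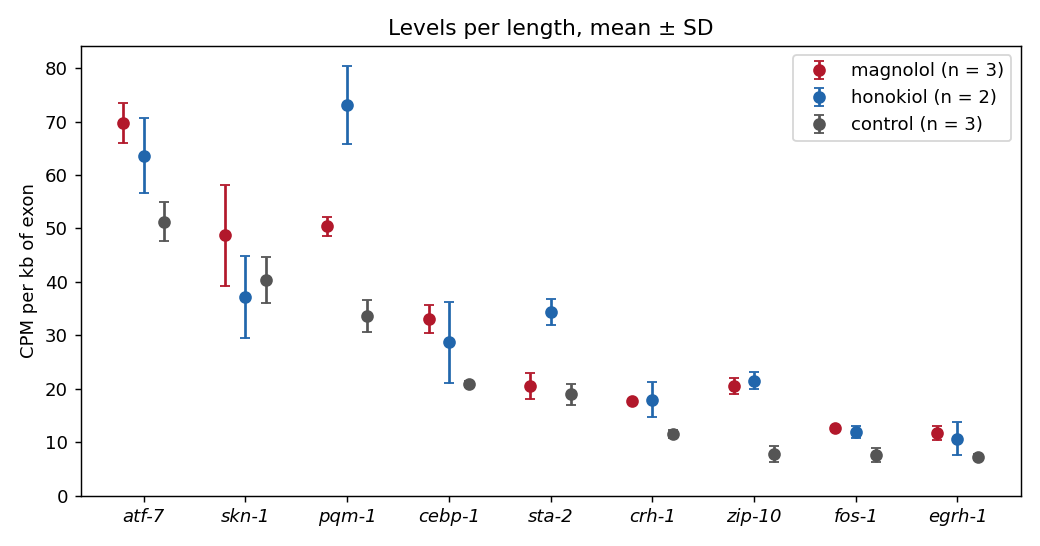
CPM per kb of exon (mean ± SD) of the 9 genes with magnolol (n = 3), honokiol (n = 2) and control (n = 3), ordered by the control level from atf-7 (51.3) to egrh-1 (7.16). The honokiol points of pqm-1 (73.1) and sta-2 (34.4) stand above those of the other groups.

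Other genes of these families and pathways were followed through fixed lists, drawn up with earlier results of these data known. Beside the counts of each list, 2.16% of all tested rows were called higher with magnolol and 3.04% with honokiol. Of 18 further bZIP rows tested 2 rose with magnolol and 1 with honokiol, with medians of 0.23 and 0.10. The bZIP gene zip-5 measured 17.8 to 19.4 CPM in magnolol worms and 18.2 to 19.2 CPM in honokiol worms, against 7.84 to 8.96 CPM in control, a rise of 1.13 ± 0.12 with magnolol (adjusted p = 2.59e-05 in edgeR) and 1.12 ± 0.13 with honokiol (adjusted p = 4.63e-05 in edgeR). The gene zip-2, whose product acts in the defence against bacteria that block translation, measured 308.5 ± 20.3 CPM in magnolol worms and 207 ± 20.4 CPM in control (SD, n = 3 each), a rise of 0.57 ± 0.12 (adjusted p = 0.0194 in edgeR). That call was lost without magnolol 2, magnolol 3, control 1 or control 2 (adjusted p = 0.0648, 0.0725, 0.0615 and 0.109 in edgeR). Of 20 other stress factor rows, among them daf-16, hsf-1 and hif-1, 0 were called in edgeR in either comparison, with 5 at an unadjusted p under 0.05 with magnolol and 0 with honokiol. Beside this and the like counts below, 2593 of all 16813 tested rows had such an unadjusted p in edgeR with magnolol. With honokiol there were 1822, and between the isomers 2699.

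Among kinase cascade genes, 5 of 21 were called higher with magnolol and 3 with honokiol, and 0 were called lower. The list medians were 0.16 and 0.17. The lowest row with each compound was kgb-2, at -0.21 with magnolol and -0.64 with honokiol, and neither change was called. The named genes act in the p38, JNK and DLK pathways that lie upstream of several of the factors described. The transcript of dlk-1, the kinase upstream of CEBP-1 in axons, measured 80.2 to 101.1 CPM in magnolol worms and 72.1 to 100.4 CPM in honokiol worms, against 47.9 to 52.7 CPM in control. Its rise was 0.88 ± 0.12 with magnolol (adjusted p = 4.52e-04 in edgeR) and 0.79 ± 0.14 with honokiol (adjusted p = 0.00215 in edgeR, 0.0637 without honokiol 1). The transcript of vhp-1, a phosphatase that switches off JNK and p38 kinases, rose by 0.75 ± 0.12 with magnolol (adjusted p = 0.0011 in edgeR) and 0.74 ± 0.13 with honokiol (adjusted p = 0.00211 in edgeR). The transcript of tir-1, the SARM adaptor at the head of the p38 cascade, rose by 0.71 ± 0.10 with magnolol (adjusted p = 7.63e-04 in edgeR) and 0.72 ± 0.11 with honokiol (adjusted p = 0.00104 in edgeR). The other 2 called with magnolol, mlk-1 and nipi-3, are named after their values were seen. Of the 5 magnolol calls 3 held without magnolol 2, without magnolol 3 or without control 1, with mlk-1 (adjusted p = 0.0639, 0.0656 and 0.0647 in edgeR) and nipi-3 (0.15, 0.0868 and 0.146) lost in each case. The nipi-3 call was also lost without magnolol 1 (adjusted p = 0.0833 in edgeR) and without control 2 (0.11). Between the isomers 0 of these 21 rows were called in edgeR, with 4 at an unadjusted p under 0.05. Of 10 rows of CREB coactivators and kinases and of 11 rows of SKN-1 and insulin pathway regulators, 0 were called in edgeR in the 3 comparisons, while 5 and 3 had an unadjusted p under 0.05 with magnolol, 0 and 1 with honokiol, and 2 and 2 between the isomers.

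**Figure D5:**
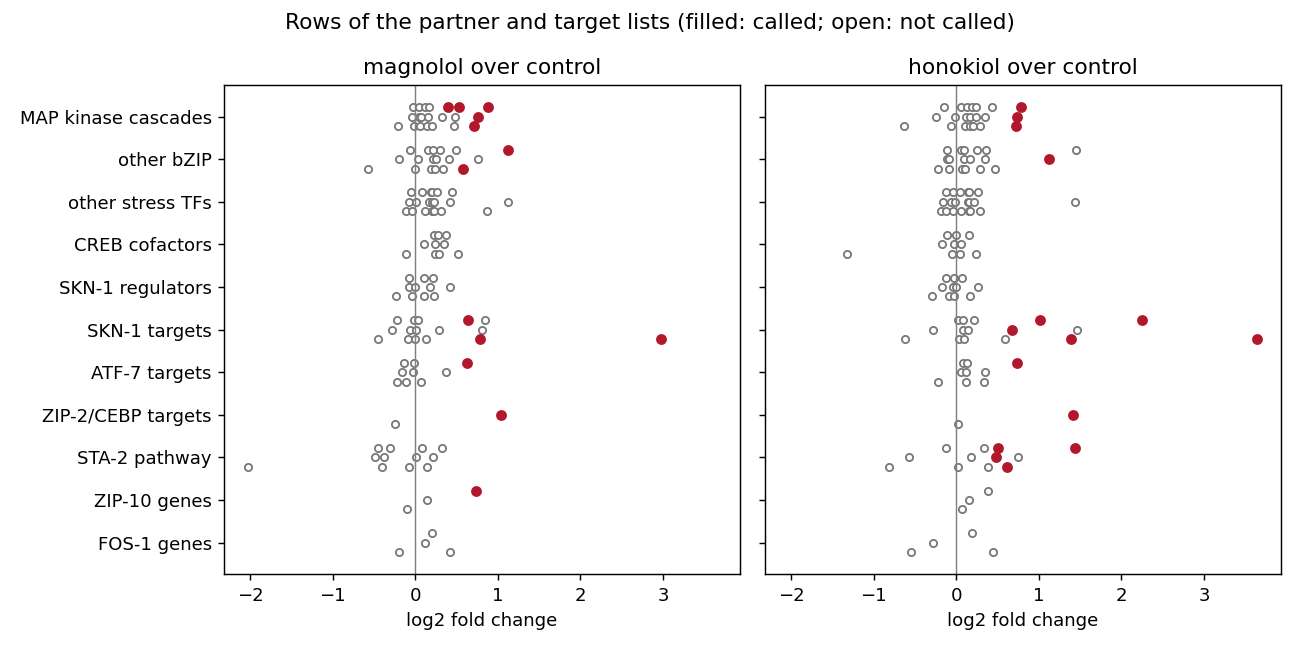
Log2 fold changes (horizontal axis) of all tested rows of the 11 partner and target lists for magnolol over control and honokiol over control, filled where called. The STA-2 pathway holds filled points only in the honokiol panel (4 of 12 rows), and the MAP kinase cascades hold 5 with magnolol and 3 with honokiol.

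The lists of known targets, which for STA-2 and ZIP-10 also hold genes acting upstream, held 0 to 5 called rows with each compound. In the list of STA-2 pathway and epidermal peptide genes, 4 of 12 rose with honokiol and 0 were called with magnolol in edgeR (6 at an unadjusted p under 0.05). The list medians were -0.19 for magnolol and 0.36 for honokiol. The lowest row with each compound was the peptide gene cnc-2, at -2.03 with magnolol and -0.82 with honokiol, and neither change was called. The antimicrobial peptide gene cnc-4 measured 19.5 to 22.2 CPM in magnolol worms and 45.8 to 55.3 CPM in honokiol worms, against 16.9 to 21.6 CPM in control. Its change was 1.44 ± 0.13 with honokiol (adjusted p = 3.63e-06 in edgeR) and -1.29 ± 0.13 between magnolol and honokiol (adjusted p = 3.78e-05 in edgeR). The receptor gene dcar-1, which acts upstream of this response, rose by 0.51 ± 0.11 with honokiol (adjusted p = 0.0108 in edgeR, 0.0753 without honokiol 1 and 0.0778 without honokiol 2). The peptide gene nlp-31 rose by 0.61 ± 0.14 with honokiol (adjusted p = 0.0219 in edgeR, 0.297 without honokiol 2, 0.0965 without control 1 and 0.0972 without control 2) and its difference between magnolol and honokiol was -1.06 ± 0.14 (adjusted p = 4.96e-04 in edgeR). The fourth gene called with honokiol, gpa-12, is named after its values were seen (0.48 ± 0.12, adjusted p = 0.0366 in edgeR), and lost its call without each of the 8 libraries in turn other than magnolol 2 (adjusted p = 0.057 to 0.243). Without honokiol 2 only cnc-4 kept its call, 1 of the 4. With honokiol 1 left out 2 of the 4 kept it, as they did without control 1 or control 2. In all, 3 of the 12 rows were called between the isomers, all lower with magnolol.

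Of 16 SKN-1 target rows tested, 3 rose with magnolol and 5 with honokiol, beside a skn-1 transcript that was not called. Median changes were 0.021 and 0.18. The lowest row with each compound was gst-38, at -0.45 with magnolol and -0.62 with honokiol, and neither change was called. The glutathione S-transferase gene gst-5 measured 35.6 to 47.8 CPM in magnolol worms and 111.9 to 128.8 CPM in honokiol worms, against 23.7 to 26.9 CPM in control, and its difference between magnolol and honokiol was -1.47 ± 0.13 (adjusted p = 6.35e-06 in edgeR). The others named by rule were gst-7 (0.63 ± 0.12 with magnolol and 1.01 ± 0.13 with honokiol) and dhs-8 (2.97 ± 0.49 and 3.64 ± 0.51), a short-chain dehydrogenase gene with only 0.230 ± 0.0947 CPM in control. For magnolol the adjusted p of gst-7 was 0.00592 in edgeR and 0.0509 without control 1, and that of dhs-8 was 0.00204 in edgeR and 0.0738 in limma-voom. The gene gst-13, also called with honokiol, is named after its values were seen. Its rise was 0.68 with honokiol and 0.63 ± 0.16 without honokiol 2, where the call was lost.

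Among 9 tested immune effector rows that depend on PMK-1 and ATF-7, the lysozyme gene lys-2 was the 1 called with each compound, at 0.62 ± 0.10 with magnolol and 0.74 ± 0.11 with honokiol. The infection response gene irg-2 was the 1 called of 2 rows that depend on ZIP-2 and CEBP factors, with 16.2 to 17.6 CPM in magnolol worms and 21.6 to 22.4 CPM in honokiol worms, against 6.36 to 9.61 CPM in control. Its changes were 1.04 ± 0.15 with magnolol (adjusted p = 5.37e-04 in edgeR) and 1.41 ± 0.16 with honokiol (adjusted p = 3.26e-05 in edgeR). The other row, irg-1, was at -0.25 with magnolol and 0.022 with honokiol and was not called. Only 2 of the 4 genes on that list had a row. Of the 3 genes tied to ZIP-10 in cold shock, the cathepsin B-like protease gene cpr-3 rose with magnolol (0.74 ± 0.14, adjusted p = 0.00645 in edgeR, 0.0624 without magnolol 3). With honokiol cpr-3 was at 0.39 ± 0.15 and was not called. None of the 4 genes under FOS-1 control in the anchor cell was called in edgeR in the 3 comparisons, with 0, 1 and 1 at an unadjusted p under 0.05 for magnolol, honokiol and the difference of the isomers.

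The rows most like each called member were found by the root mean square difference of centred log2 CPM over the 8 libraries. For zip-10 they were sptl-2, which encodes a subunit of serine palmitoyltransferase (difference 0.107), and the acyltransferase-like gene oac-31 (0.108). The sptl-2 transcript measured 47.3 CPM in magnolol worms and 51.8 CPM in honokiol worms, against 20.4 CPM in control. For atf-7 the closest row was another bZIP gene, atfs-1, which acts in the mitochondrial unfolded protein response (0.0477). The atfs-1 transcript measured 85.7 CPM in magnolol worms and 78.97 CPM in honokiol worms, against 64.5 CPM in control. Its changes of 0.41 ± 0.11 with magnolol and 0.29 ± 0.12 with honokiol were not called (adjusted p = 0.064 and 0.357 in edgeR). The next row for atf-7 was the carnitine palmitoyltransferase gene cpt-1 (0.0511). For pqm-1 they were the potassium channel gene twk-34 (0.082) and the aldehyde dehydrogenase gene alh-5 (0.102), and for sta-2 C06B3.6 (0.0976) and T19C4.5 (0.121). The closest rows were ncx-6 and ZK470.2 for fos-1 (0.0965 and 0.0978), catp-1 and dmd-6 for cebp-1 (0.0937 and 0.0948), F16B4.5 and T27D12.1 for egrh-1 (0.087 and 0.127), and the ubiquitin ligase gene siah-1 and aman-3 for crh-1 (0.105 and 0.106). These likenesses describe 8 libraries in 3 groups.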

How the data were processed

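RNA of whole worms was sequenced in 8 libraries, and the authors deposited 1 table of raw counts per gene. Per the submitters' processing notes, WBcel235 and DESeq2 were used. The sources used here do not state the aligner, the counter or its strand setting. The table has 20257 gene model rows and 1052 added rows, of which 435 carry a symbol and enter a list where it matches. Members and gene lists were chosen with earlier results of these data known. Symbols came from the table. Positions and exon lengths came from the Ensembl WBcel235 annotation, and 15070 tested rows (89.6%) had a length.

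From the deposited counts, rows passing filterByExpr (16813) were fitted with edgeR 4.0.16 (R 4.3.3), with TMM scaling and group means over all 8 libraries (5 residual degrees of freedom), and each p-value was adjusted by Benjamini-Hochberg over all tested rows, with a threshold of 0.05. Alternatives used DESeq2 1.42.0 and limma 3.58.1, other scalings and filters, a block on replicate number, an exon length correction and libraries left out. The steps were run on counts simulated from the fitted dispersions, and the outcome is not given here. The simulation held no deviating library and no length trend, so it cannot show how the steps handle these. All members are named, and of each list at most 3 called rows with the smallest p per comparison. Rows most like a member were sought among tested named rows.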

Additional observations from a re-analysis of the deposited data

Results flagged for a closer look

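In 8 genes the effects of magnolol and honokiol, each at the same dose and time, differed by the fitted test of the difference itself (edgeR's quasi-likelihood test, magnolol over honokiol, log2). Among the factor genes these were pqm-1 (-0.54, adjusted p = 0.0161) and sta-2 (-0.75, adjusted p = 0.00317). Among STA-2 pathway and epidermal peptide genes they were cnc-4 (-1.29), nlp-31 (-1.06) and nlp-29 (-0.83). The nlp-29 transcript was at 20.7 ± 3.77 CPM with magnolol (SD, n = 3) and 36.8 ± 3.69 CPM with honokiol (SD, n = 2), and its call was lost without magnolol 3 (adjusted p = 0.0519 in edgeR) and without honokiol 2 (0.174). With the exon length correction it was -0.50 ± 0.16 and not called (adjusted p = 0.178 in edgeR).

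Among SKN-1 targets they were gst-5 (-1.47), sdz-8 (-1.11) and gst-13 (-0.54). The sdz-8 transcript was at 5.02 to 6.74 CPM with magnolol and 10.8 to 15.1 CPM with honokiol, and its adjusted p was 0.00973 in edgeR and 0.33 without honokiol 2. The gst-13 transcript was at 36.7 to 41.9 CPM with magnolol and 54.4 to 57.9 CPM with honokiol. Its adjusted p was 0.0438 in edgeR, and 0.136, 0.174, 0.0523, 0.431 and 0.0666 without magnolol 2, magnolol 3, honokiol 1, honokiol 2 and control 1. With the exon length correction it was -0.42 ± 0.10 and not called (adjusted p = 0.0605 in edgeR).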

How the results depend on the processing

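Of the called changes of the factor and list genes, 28 kept their call in all 19 alternatives and 20 did not. The number of factor genes called higher ran from 4 to 7 with magnolol and from 3 to 7 with honokiol when 1 library was left out, and the number called lower between the isomers from 1 to 2. It was 4 with magnolol without magnolol 2 and control 3, a choice made after seeing the data, as was leaving out the added rows. Same-numbered libraries did not deviate together, so the numbers were not taken as pairs. The correlations were -0.0411, 0.0241 and -0.0498 for magnolol and control, and 0.0862 and 0.0249 for honokiol and control. For magnolol and honokiol they were -0.135 and -0.17. The submitted names of the honokiol libraries skip a number, so honokiol 2 may not be the counterpart of magnolol 2 and control 2. With the replicate block atf-7 lost its magnolol call (adjusted p = 0.0766 in edgeR) and pqm-1 its isomer call (0.0771), which left 1 gene called between the isomers, and zip-2 (0.0522), dcar-1 (0.0741), gst-13 (0.0964), gpa-12 (0.16) and nipi-3 (0.112) also lost calls. With upper-quartile scaling nipi-3 lost its call (0.0545). Without the low-count filter egrh-1 was called with honokiol (0.0302).

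Some changes that were not called reversed. With libraries left out, skn-1 with honokiol ran from -0.33 to 0.070 and sta-2 with magnolol from -0.0070 (without magnolol 2 and control 3) to 0.21. Between the isomers the ranges were -0.16 to 0.0066 for zip-10, -0.0055 to 0.16 for fos-1, -0.046 to 0.48 for cebp-1, -0.14 to 0.44 for egrh-1 and -0.19 to 0.16 for crh-1. With the exon length correction the isomer difference was 0.099 for zip-10, -0.21 for fos-1 and -0.017 for atf-7. The causes were not tested.

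List genes called lower with magnolol numbered 0, against 1 without the filter, 2 in DESeq2, 1 without magnolol 2 and control 3, and 0 to 1 with 1 library left out. With honokiol they numbered 0, against 1 in DESeq2 and 1 with the exon length correction. Between the isomers 0 were higher, against 2 without the filter, 3 in DESeq2 and 0 to 3 with 1 library left out, and 6 were lower, against 3 to 7 with 1 left out. Over all rows tested, 118 were called lower with magnolol, against 183 without the filter, 268 in DESeq2, 60 with the block, 56 without magnolol 2 and control 3, and 36 to 135 with 1 left out. With honokiol 66 were lower, against 141 in DESeq2, 33 with the block and 35 to 80 with libraries left out. Between the isomers 48 were higher, against 261 without the filter, 314 in DESeq2, 90 in limma-voom, 16 with the block and 15 to 321 with 1 left out, and 209 were lower, against 315 without the filter, 319 in DESeq2 and 112 to 253 with 1 left out.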
